A study of Rattus norvegicus with 12 samples.

Results

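Transcripts of Mki67 and Cdk1, genes of dividing cells, were followed across testis and brain of rats that carry a human DNMT3A transgene (hDNMT3A) and of wild-type (WT) rats. The set was defined by 3 Ensembl identifiers: ENSRNOG00000028137 for Mki67, ENSRNOG00000000632 for Cdk1 and ENSRNOG00000028887 for Pcna. They were chosen by name, without a cutoff on their values, but with earlier results of these data known. Of these, 2 were found among the 25908 genes of the deposited table, and Pcna was not analysed here. The table pairs no identifier with a gene name, so the names follow that list of identifiers. For the same reason the germ cell, glial and neuronal markers that would check the labelled tissues, and other genes of the cell cycle, were not analysed here.

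The series held 12 libraries in 4 groups of 3: hDNMT3A testis, WT testis, hDNMT3A brain and WT brain. All were from adult male Sprague Dawley rats aged 15 weeks, and the groups differ in the transgene and the organ. The promoter of the transgene, the number of transgenic lines and any pooling of animals were not stated in the labels read here. DNMT3A is a DNA methyltransferase that sets new methyl marks on cytosines. The labels do not say whether the samples of a group came from separate rats, and p-values then reflect only how far these samples spread, part of which may be technical.

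Mki67 encodes the Ki67 antigen, a large protein that coats mitotic chromosomes and is used in histology as a mark of cycling cells. Cdk1 encodes the kinase that, bound to B-type cyclins, drives entry into mitosis and into the meiotic divisions. In the adult testis, spermatogonia divide by mitosis and spermatocytes pass through meiosis, while most cells of the adult brain no longer divide, apart from some progenitors and glia. Many genes of late cell cycle phases carry promoter elements named the CCAAT box, bound by the factor NF-Y, and the CHR element, bound by complexes that repress them in resting cells. E2F sites, another such element, are bound by E2F factors.

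The promoter windows of both genes are shown because both genes differed between the tissues in the same direction. They run from 250 bases before to 50 bases after the annotated start, on the strand of the gene, and were taken by symbol from RefSeq (build GRCr8, which is not the build of the expression table). The Mki67 window lies at chr1:199952544-199952843 on the minus strand and the Cdk1 window at chr20:19265043-19265342 on the plus strand. Capitals mark matches on either strand to CCAAT, to the CHR letters TTTGAA or TTCGAA, and to the E2F letters TTTCGCGC or TTTGGCGC.
Mki67: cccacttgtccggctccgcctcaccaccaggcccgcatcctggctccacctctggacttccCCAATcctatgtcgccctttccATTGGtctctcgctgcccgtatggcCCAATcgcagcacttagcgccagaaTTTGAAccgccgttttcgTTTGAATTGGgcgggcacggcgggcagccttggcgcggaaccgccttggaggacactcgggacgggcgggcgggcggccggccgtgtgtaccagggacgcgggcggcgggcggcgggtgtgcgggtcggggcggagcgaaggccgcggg
Cdk1: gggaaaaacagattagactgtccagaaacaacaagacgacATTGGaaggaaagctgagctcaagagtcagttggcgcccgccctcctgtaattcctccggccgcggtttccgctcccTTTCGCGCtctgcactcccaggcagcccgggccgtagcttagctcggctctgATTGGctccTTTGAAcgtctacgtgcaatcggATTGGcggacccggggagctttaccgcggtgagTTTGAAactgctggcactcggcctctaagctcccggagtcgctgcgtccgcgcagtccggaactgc
The Mki67 window held 4 matches to CCAAT and 2 to the CHR letters. The CHR matches began 117 and 99 bases before the start, and the one nearer the start overlapped a CCAAT match on the other strand. The Cdk1 window held 3 matches to CCAAT, 2 to the CHR letters, which began 72 and 16 bases before the start, and 1 to the E2F letters, which began 133 bases before it. Among all 33469 promoter windows of the table, 37.5% held a CCAAT match, 19.7% a CHR match and 0.792% an E2F match. In 11.2% of windows there were 2 or more CCAAT matches, and the share with 2 or more CHR matches was not worked out. Both CCAAT and CHR were present in 7.95% of windows, and all 3 kinds of element in 0.0807%. A match of letters is a description of the sequence and not evidence of a bound site.

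Levels were read as FPKM, fragments scaled to gene length and to the size of the library, which allows genes to be compared per length. One gene length turned the 12 values of a gene into whole reads, 9880 bp for Mki67 and 1411 bp for Cdk1. Library totals recovered in this way ran from 14004547 to 16112149 reads. Counting intervals (95%, exact Poisson) reflect counting error alone and not the spread between libraries. Without molecular identifiers several reads can stem from 1 molecule, so the intervals may be too narrow.

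Both genes were abundant in testis and low in brain. Mki67 stood at 22.8, 18.1 and 18.6 FPKM in the hDNMT3A testis libraries and at 27.2, 26.9 and 29.4 FPKM in the WT testis libraries. In brain it stood at 1.12, 0.877 and 1.25 FPKM in hDNMT3A libraries and at 0.998, 1.64 and 0.845 FPKM in WT libraries. Every testis library therefore lay far above every brain library, and in testis every hDNMT3A library lay below every WT library. Behind these values were 2646 to 4638 Mki67 reads per testis library and 127 to 227 per brain library, so counting error was small in testis.

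Cdk1 stood at 14.9, 19.3 and 18.8 FPKM in hDNMT3A testis and at 16.1, 17.7 and 21.0 FPKM in WT testis. In brain it was listed at 0, 0.271 and 0.280 FPKM in hDNMT3A libraries and at 0.189, 0.455 and 0.280 FPKM in WT libraries. The genotypes overlapped in both tissues, and the testis and brain ranges were far apart. The testis values rest on 317 to 474 reads per library. The brain values rest on 0, 6 and 6 reads in hDNMT3A libraries and on 4, 9 and 6 reads in WT libraries. The count of 0 in hDNMT3A brain replicate 1 allows a level of up to 0.14 FPKM, taking 3 reads as the limit that a count of 0 allows.

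**Figure D1:**
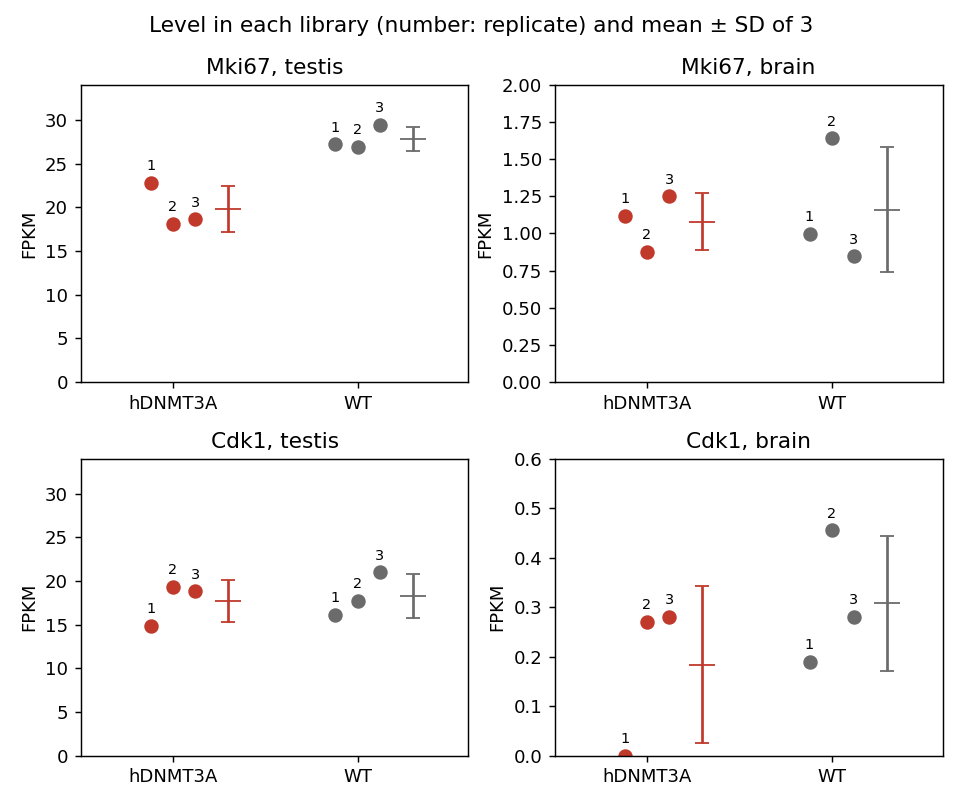
FPKM (vertical axis) of Mki67 (upper panels) and Cdk1 (lower panels) in testis (left) and brain (right), with 1 numbered point per library and, to its right, a bar at the group mean ± SD (n = 3) (red, hDNMT3A; grey, WT). Vertical scales differ between tissues. The Mki67 points of hDNMT3A testis, from 18.1 to 22.8 FPKM, lie below those of WT testis, from 26.9 to 29.4 FPKM, while the other panels overlap.

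Mki67 averaged 19.8 ± 2.59 FPKM in hDNMT3A testis, 27.8 ± 1.36 in WT testis, 1.08 ± 0.191 in hDNMT3A brain and 1.16 ± 0.422 in WT brain (SD, n = 3 each). Cdk1 averaged 17.7 ± 2.42 FPKM in hDNMT3A testis, 18.3 ± 2.51 in WT testis, 0.184 ± 0.159 in hDNMT3A brain and 0.308 ± 0.136 in WT brain (SD, n = 3 each). By their means the groups took the same order for both genes, with WT testis highest, then hDNMT3A testis, WT brain and hDNMT3A brain. Of the neighbours in this order, the testis groups of Cdk1 and the brain groups of both genes overlapped. Among the 25908 genes, the mean of Mki67 was above that of 83.0% in hDNMT3A testis, 86.7% in WT testis, 48.0% in hDNMT3A brain and 47.3% in WT brain. Cdk1 was above 81.6% of genes in hDNMT3A testis and 82.2% in WT testis, and above 33.7% in hDNMT3A brain and 36.0% in WT brain.

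The first comparison asked how far transcripts of dividing cells in testis exceeded those in adult brain. Both Mki67 and Cdk1 were higher in testis, in transgenic and in wild-type rats, which share no library. The mean of Mki67 was 18.3-fold higher in testis than in brain of hDNMT3A rats (counting interval of the summed reads 16.7 to 20.1) and 24.0-fold higher in WT rats (22.2 to 26.6). The mean of Cdk1 was 96.2-fold higher in testis of hDNMT3A rats (interval 54.7 to 186) and 59.4-fold higher in WT rats (38.4 to 100). In bulk tissue, fewer cells of a type and less RNA per cell cannot be told apart.

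In limma fits across the whole table, the testis minus brain difference of Mki67 on the log2(FPKM + 0.5) scale was 3.68 (SE 0.14, adjusted p = 8.15e-08) in hDNMT3A rats and 4.12 (SE 0.18, adjusted p = 1.08e-06) in WT rats. The difference of Cdk1 was 4.75 (SE 0.20, limma adjusted p = 1.71e-07) in hDNMT3A rats and 4.55 (SE 0.16, adjusted p = 4.80e-07) in WT rats. Cdk1 passed the filter at a mean of 1 FPKM only through testis, where it is high, and without a filter its adjusted p was 2.36e-05 in hDNMT3A rats and 1.18e-05 in WT rats. Both of the 2 genes were thus called in each genotype, where 41.5% of the genes tested were called higher in testis in hDNMT3A rats and likewise 41.5% in WT rats. A call is therefore common here, and the size says more. In hDNMT3A rats 12.4% of genes had a larger difference toward testis than Mki67 and 7.78% a larger one than Cdk1. The shares in WT rats were 9.62% for Mki67 and 7.91% for Cdk1. The median of all genes tested was -0.21 in hDNMT3A rats and -0.23 in WT rats, toward brain. With libraries scaled to their median ratio, which brings it to -0.01 in each, the difference of Mki67 was 3.88 in hDNMT3A rats and 4.34 in WT rats, while that of Cdk1 was 4.96 in hDNMT3A rats and 4.76 in WT rats. Differences of low genes are understated on this scale. With a pseudocount of 0.1 FPKM in place of 0.5 the Cdk1 difference was 6.19 in hDNMT3A rats and 5.54 in WT rats. Over both genotypes, each of the 6 testis libraries exceeded each of the 6 brain libraries for each gene. Of the genes tested, 41.8% in hDNMT3A rats and 42.0% in WT rats had every testis library above every brain library of that genotype. The pooled difference gave p = 0.00216 for each gene, the smallest possible, in an exact two-sided permutation test of 6 libraries against 6, taken as unpaired. If brain and testis samples came from the same rats, which the labels do not say, this p would not apply.

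**Figure D2:**
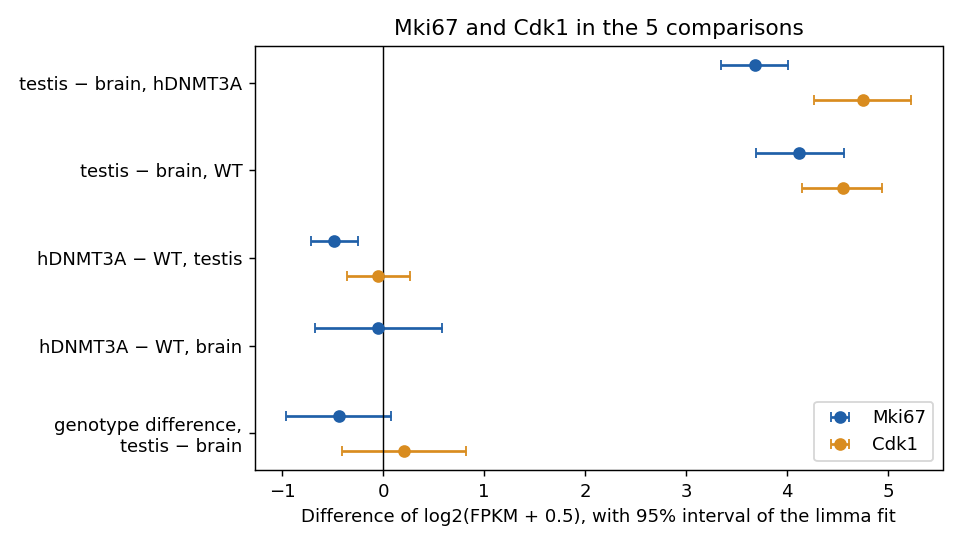
Differences of log2(FPKM + 0.5) for Mki67 (blue) and Cdk1 (orange) in the 5 comparisons (vertical axis), with 95% intervals of the limma fits. The testis minus brain values lie between 3.68 and 4.75. Of the genotype differences, that of Mki67 in testis, -0.49, has an interval without 0 before adjustment. Cdk1 in brain was below the filter and has no point.

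The second comparison asked whether the transgene went with a different level in testis. Mki67 averaged 19.8 ± 2.59 FPKM in hDNMT3A testis and 27.8 ± 1.36 FPKM in WT testis (SD, n = 3 each), a difference of -28.9% of the WT mean. The log2 difference was -0.49 (SE 0.10, 95% interval -0.72 to -0.25 before adjustment), and it did not pass the limma threshold over all genes (unadjusted p = 0.00164, adjusted p = 0.109). All 3 hDNMT3A libraries lay below all 3 WT libraries, an arrangement found in 7.75% of the 14572 genes tested, and the exact permutation test of 3 against 3 gave the smallest p it can, 0.1. Cdk1 showed no such separation. Its means were 17.7 ± 2.42 FPKM in hDNMT3A testis and 18.3 ± 2.51 FPKM in WT testis (SD, n = 3 each), a log2 difference of -0.05 (SE 0.13, 95% interval -0.36 to 0.26, limma adjusted p = 0.924). The interval leaves room for modest differences in either direction.

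None of the 2 genes was called in testis at an adjusted p under 0.05, where limma called 0.576% of the genes tested. At an unadjusted p under 0.05, limma called 11.1% of them and 1 of the 2 genes, Mki67. In that comparison 573 of 14572 genes (3.93%) had a lower difference than Mki67 and 217 had a smaller p. The median difference of all genes tested was 0.02.

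**Figure D3:**
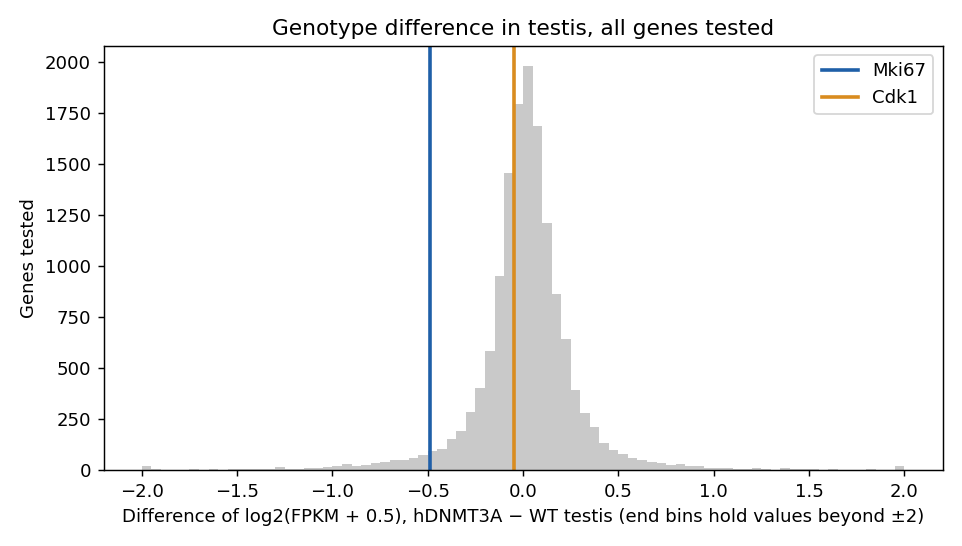
Histogram of the hDNMT3A minus WT difference of log2(FPKM + 0.5) in testis (horizontal axis) over the 14572 genes tested (vertical axis, genes per bin). Lines mark Mki67 at -0.49, with 3.93% of genes to its left, and Cdk1 at -0.05, within the bulk of the genes.

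Whether Mki67 in testis passed the threshold depended on the fit. Its difference stayed negative in all 17 alternatives, between -0.59 and -0.43, with an unadjusted limma p under 0.05 in each. The alternatives reuse the same libraries, where every hDNMT3A testis value lay below every WT value, so the kept sign is no separate evidence. The adjusted p ran from 0.0183 to 0.306 and was under 0.05 in 3 of them. These were the fit with weights for libraries (0.0467), voom on the recovered reads (0.0183) and the fit without hDNMT3A testis replicate 1 (0.0413), the library with the highest Mki67 value of its group. Of 14572 genes tested, the fit with weights called 196 and voom 190, against 84 in the reported fit. Without hDNMT3A testis replicate 1, limma called 80 of 14547 genes. Without any other single library the adjusted p of Mki67 ran from 0.179 to 0.306.

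**Figure D4:**
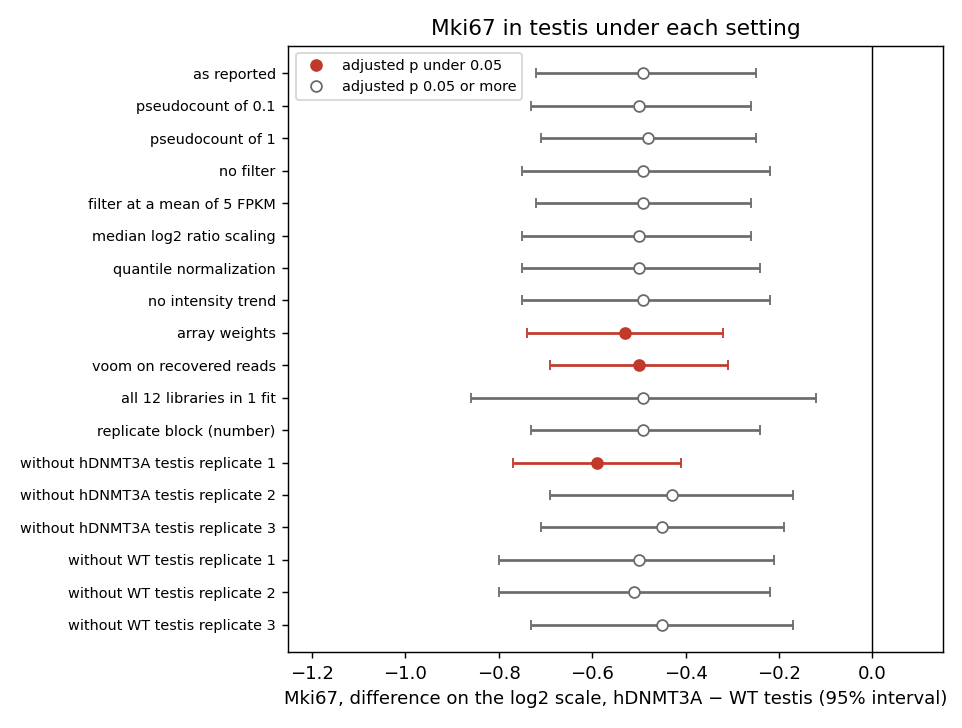
Difference of Mki67 between hDNMT3A and WT testis on the log2 scale (horizontal axis) with its 95% interval before adjustment, under each setting (vertical axis, the reported fit at the top). Filled red points had an adjusted p under 0.05 and open points did not; all 18 estimates lie between -0.59 and -0.43, and 3 are filled.

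In brain neither gene passed the test between genotypes. Mki67 averaged 1.08 ± 0.191 FPKM in hDNMT3A brain and 1.16 ± 0.422 FPKM in WT brain (SD, n = 3 each). The log2 difference was -0.05 (SE 0.27, 95% interval -0.68 to 0.58, limma adjusted p = 0.987), so a difference of the size seen in testis was within the interval. Its sign changed among the alternatives. Cdk1, with a mean under 1 FPKM, was not tested in the filtered fit. Summed over 3 libraries each, 12 reads in hDNMT3A brain and 19 in WT brain gave a depth-scaled ratio of 0.606 with a counting interval of 0.268 to 1.31, which includes 1. Without a filter, the log2 difference of Cdk1 was -0.26 (SE 0.23, limma adjusted p = 0.849). Mki67, the member tested, was not called, where 0.116% of 13827 genes were called in brain and 7.87% had an unadjusted p under 0.05.

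The highest brain value of both genes came from the same library, WT brain replicate 2, at 1.64 FPKM for Mki67 and 0.455 FPKM for Cdk1. That library also stood highest for genes restricted to testis. A class of 203 testis-restricted genes, averaging 100 FPKM or more in testis with a brain median no higher than 0.5 FPKM, stood at 1.594% of its testis level there. The class stood at 0.051%, 0.119% and 0.165% in the hDNMT3A brain libraries and 0.330% and 0.062% in WT brain replicates 1 and 3. At a share of 1.594%, the mean testis level of Mki67 would come to 0.380 FPKM, or 23.2% of its value in WT brain replicate 2, and that of Cdk1 to 0.287 FPKM, or 63.0% of its value. In the other brain libraries the same reckoning gave 1.09% to 7.88% of the Mki67 value, and for Cdk1 3.96% to 31.4% of the value in those with reads. Whether testis RNA was carried into these brain libraries was not tested. With such a share subtracted from each brain library, the genotype difference of Mki67 in brain was 0.052 (limma adjusted p = 0.985), and without WT brain replicate 2 it was 0.149 (adjusted p = 0.962). Without that library, the testis minus brain difference in WT rats was 4.32 for Mki67 and 4.67 for Cdk1.

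**Figure D5:**
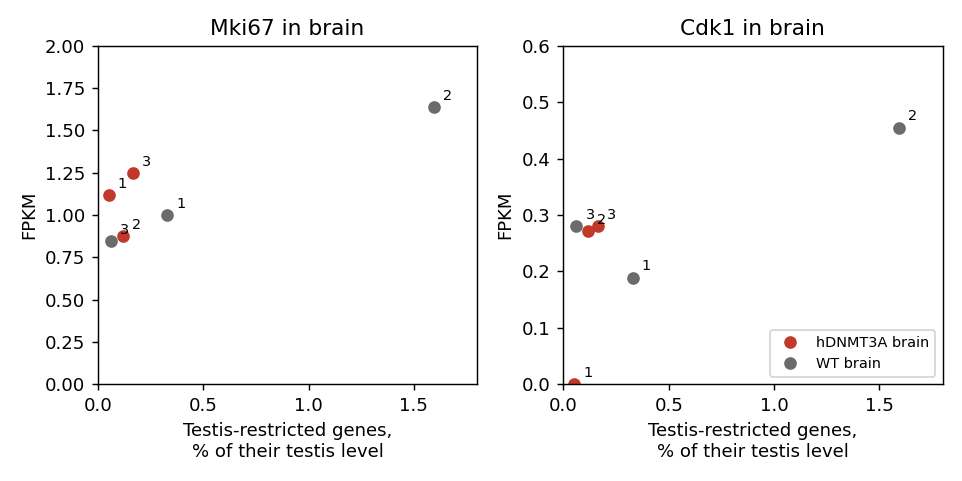
FPKM of Mki67 (left) and Cdk1 (right) in the 6 brain libraries (vertical axes, different scales) against the level of 203 testis-restricted genes as a percent of their testis level (horizontal axis), with 1 numbered point per library (red, hDNMT3A; grey, WT). WT brain replicate 2, at 1.594%, has the highest value of each gene.

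Whether the genotype difference itself differed between testis and brain was tested in 1 limma fit of all 12 libraries. For Mki67 the difference in testis minus that in brain was -0.44 (SE 0.24, 95% interval -0.96 to 0.08, adjusted p = 0.681). For Cdk1 it was 0.21 (SE 0.28, 95% interval -0.41 to 0.82, limma adjusted p = 0.897). Cdk1 entered this fit only through its testis level, and its brain side rests on the 12 reads in hDNMT3A and 19 reads in WT libraries for which it was not tested in brain alone, so its value depends on the scale: it was 0.65 with a pseudocount of 0.1 FPKM and 1.24 with voom on the recovered reads (adjusted p = 0.837 and 0.823). Neither was called, where 0.429% of 16100 genes were called and 8.38% had an unadjusted p under 0.05. The lower Mki67 level in hDNMT3A testis is therefore not shown to be specific to testis.

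The ratio of the genes within a library does not depend on how libraries were scaled. Mki67 was 1.53, 0.935 and 0.987 times the FPKM of Cdk1 in hDNMT3A testis and 1.69, 1.52 and 1.40 times in WT testis. The ratio was below every WT value in 2 of the hDNMT3A libraries and within the WT range in replicate 1. The log2 ratio differed by -0.45, hDNMT3A minus WT, and an exact two-sided permutation test of 3 against 3 gave p = 0.3, with 0.1 the smallest possible. In brain, Mki67 exceeded Cdk1 by more, 3.24 and 4.47 times in the hDNMT3A libraries with Cdk1 reads and 5.28, 3.60 and 3.02 times in WT libraries, each resting on at most 9 Cdk1 reads.

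Across the 12 libraries, log2(FPKM + 0.5) of Mki67 and Cdk1 correlated with r = 0.989, a description in which the contrast of the organs sets most of the spread. Many genes had such a profile: of 16099 others, 1987 (12.3%) reached a correlation of 0.99 with Mki67 and 2524 (15.7%) with Cdk1. The gene most like Mki67 was ENSRNOG00000052935 (r = 0.9985), at 10.8 ± 1.05 FPKM in hDNMT3A testis and 18.1 ± 2.92 FPKM in WT testis, and at 0.0157 and 0.0681 FPKM in hDNMT3A and WT brain. The gene most like Cdk1 was ENSRNOG00000018207 (r = 0.9986), at 227 ± 15.1 FPKM in hDNMT3A testis and 216 ± 14.3 FPKM in WT testis, and at 9.69 and 11.6 FPKM in hDNMT3A and WT brain (means, with SD where given, n = 3 each). Each was picked by its correlation over these same libraries, so its testis levels are no separate evidence on the genotypes. The files do not pair these identifiers with names.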

How the data were processed

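RNA from brain or testis of 12 samples was sequenced from libraries of total RNA made with the Illumina TruSeq RNA kit, per the labels' protocols. The submitters' processing notes name Bowtie 1.0.1 and the rat build Rnor_6.0. Which annotation and counting tool were used, and how strand and shared reads were handled, is not given in the sources used here, and reads of overlapping genes cannot be told apart. The authors deposited 1 table of FPKM values, a share of each library that falls when a few abundant genes take more. Identifiers were looked up in the RefSeq table, where 0 had a match, so the lists by gene symbol were not run. The members and lists were chosen with earlier results of these data known.

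Read numbers were worked out from the FPKM steps: with 1 length per gene, 100% of 25908 genes gave whole reads within 0.002 reads, and their sums came to 99.987% or more of each library total. Genes at 0 in every library counted as whole without a fit. Of 1000 genes above 0 in every library and moved by about 1%, 0% gave whole reads, so these shares cover unlike sets. Between libraries of a group the chi-square per gene was 4.79 to 14.2, above sampling noise, and none were merged. Differences of log2(FPKM + 0.5) were tested two-sided in R 4.3.3 by limma 3.58.1 with its intensity trend, keeping genes that averaged 1 FPKM or more in the libraries fitted, with Benjamini-Hochberg adjustment over all genes tested and calls at an adjusted p under 0.05. Each pair of groups was fitted alone, and the interaction over 12 libraries. Simulated reads, with the same spread setting for all genes and changes of 2-fold and 4-fold, were run through the fits. They do not cover a change as small as that of Mki67 in testis. Named genes were the members and, for each, the genes with the highest correlation over 12 libraries; the rule took 2 for each, of which the first is named because the identifiers have no names. The class of testis-restricted genes and the subtraction of their share were chosen after seeing the data. Other calculations used scipy 1.17.1, pandas 2.3.3 and numpy 2.4.6 under Python 3.11.15, and figures were drawn with matplotlib 3.10.9.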

Additional observations from a re-analysis of the deposited data

How the results depend on the processing

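The testis minus brain differences of Mki67 and Cdk1 kept their direction and their call in all 18 alternatives in each genotype. These settings reuse the same libraries, where every testis value lay above every brain value, so the kept direction is no separate evidence. The size of the differences depended on the scale: Cdk1 ran from 3.98 to 7.11 in hDNMT3A rats and from 3.88 to 5.87 in WT rats, highest with voom. In testis, 1 of the 2 genes (Mki67) was called with array weights, 1 with voom on recovered reads and, among the fits without 1 library, 0 to 1, against 0 as reported. Of 14572 genes tested, array weights called 196 and voom 190, against 84 as reported. Cdk1 in testis changed sign without single libraries (-0.13 to 0.065). Mki67 in brain changed sign with quantile normalization (0.060), array weights (0.034), the subtracted testis share (0.052) and without single libraries (-0.19 to 0.149). The Cdk1 interaction ran from -0.004 to 0.32 without single libraries and was 0.65 with a pseudocount of 0.1 and 1.24 with voom, against 0.21. The cause of these changes was not tested. The log2 ratio of Mki67 to Cdk1 ran from -0.67 to -0.32 without single libraries.

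Deviations of same-numbered libraries from their group means correlated at r = -0.219 to 0.117 and in no comparison at over 0.1 for every pair. Between the genotypes in testis each hDNMT3A library did correlate best with its own number (0.047 to 0.107). The labels give brain and testis samples of a genotype matching codes, but do not say whether these mark the same rat. Weak correlations cannot decide this, and the reported fits took the libraries as unpaired. Testis minus brain fits with a replicate block gave a limma adjusted p of 1.60e-06 for Mki67 and 7.88e-07 for Cdk1 in hDNMT3A rats. In WT rats they gave 4.24e-05 for Mki67 and 2.16e-05 for Cdk1. With a replicate block the testis value of Mki67 had an adjusted p of 0.162 and 39 genes were called in testis against 84. In brain limma called 0 against 16 (742 at an unadjusted p under 0.05), and for the interaction 37, or 3 with genotype and number, against 69. Over all genes, testis calls numbered 41 without a filter, 51 with a filter at 5 FPKM, 196 with array weights, 190 with voom and 247 with all 12 libraries in 1 fit, and 20 to 80 without single libraries. Brain calls numbered 7 with a pseudocount of 0.1, 29 without a filter, 8 with a filter at 5 FPKM, 57 in 1 fit and 2 to 8 without single libraries. Interaction calls numbered 34 with a filter at 5 FPKM, 156 with array weights and 25 to 66 without single libraries. Cdk1 in brain was tested only without a filter, and its ratio to Mki67 over the tissues was not run because of the value at 0.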
